A study of Bos grunniens with 18 samples.

Results

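Calgranulins and granule antimicrobial proteins are the proteins that neutrophils, the most abundant phagocytes of the blood in many mammals, use against microbes. The genes described here were chosen by symbol: S100A8, S100A9, S100A12, LTF, PGLYRP1, LCN2 and BPI, 7 symbols in all. A row with that name was found in the deposited expression table for 6 of the 7, among 20607 genes, and no row carried the name BPI, which is not analysed here. All 6 passed the filter on low counts, which kept 14508 of the 20607 genes. The symbols were proposed with measured values of these libraries in view, and which values led to the choice is not recorded. The stage differences of the 6 genes are therefore given as a description: no p is given for them, and where the number of them past the thresholds of the fit is stated, it is a count and not evidence of a difference.

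The data came from whole blood of female yaks (Bos grunniens) aged 4 to 8 years, taken at 3 reproductive stages: anestrus (the Y-A group), estrus (the Y-E group) and pregnancy (the Y-P group), with 6 libraries per stage. The study's methods describe adult cows of an artificially inseminated herd, 6 of them sampled for sequencing and tracked over the stages. Estrus was synchronized with a progesterone pessary followed by sodium cloprostenol, a prostaglandin F2 alpha analogue, and GnRH, with timed insemination at estrus. This treatment and the stage therefore cannot be told apart in the Y-E group. As described, pregnancy followed the same course, so the earlier treatment and the stage cannot be told apart in the Y-P group either. The cows were tracked over the stages, so sampling time goes with stage as well. The labels give no other treatment, genotype or strain that separates the groups. Each library held 30247267 to 48401076 counts. In bulk blood, fewer cells of a type and less RNA per cell cannot be told apart.

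One library of the Y-E group stood apart before any result of interest here: Y-E replicate 6. The summed level of 7 reticulocyte marker genes (young red cells, which still hold RNA) was 4710 CPM (library-scaled counts) in it and 101.02 to 183.19 CPM in the other 5 Y-E libraries. In the Y-A group it ran from 458 to 11129 CPM, and in the Y-P group from 46.7 to 136 CPM. The highest Y-A value came from replicate 6, which stood apart too, the next being 2081 CPM in replicate 5. Y-A replicate 6 was kept, and was left out only in the fits that leave out each library in turn. Values of the Y-E group are given with and without this library.

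S100A8 and S100A9 pair into calprotectin, a complex that binds zinc, manganese and calcium and starves microbes of metals. Released S100A8, S100A9 and S100A12 act as alarm signals through receptors such as TLR4 and RAGE (the product of AGER). Lactoferrin, the product of LTF, and lipocalin 2, the product of LCN2, withhold iron from bacteria, lactoferrin by binding the metal and lipocalin 2 by binding bacterial siderophores. PGLYRP1 binds the peptidoglycan of bacterial walls. The calgranulins fill the cytosol of the mature neutrophil, whereas lactoferrin, lipocalin 2 and PGLYRP1 are stored in secondary or tertiary granules, whose genes are transcribed mainly while neutrophils mature in the bone marrow.

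The 3 calgranulin genes were neighbours on chromosome 3 of the yak genome (the Ensembl build used by the study, positions as deposited). S100A9 (ENSBGRG00000004994) lay at 24241620 to 24243714 on the plus strand, S100A12 (ENSBGRG00000005016) at 24250247 to 24257491 on the minus strand, and S100A8 (ENSBGRG00000005058) at 24278839 to 24279258 on the minus strand. Together they spanned 37639 bp, with no other gene of the table inside that span. The other 3 genes stood on separate chromosomes. LCN2 (ENSBGRG00000008966) was at 7501043 to 7506307 on the plus strand of chromosome 9. LTF (ENSBGRG00000010521) was at 9006066 to 9051007 on the minus strand of chromosome 22. PGLYRP1 (ENSBGRG00000019198) was at 62074044 to 62076126 on the plus strand of chromosome 20. No other gene of the table overlapped any of the 6.

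Levels of different genes were compared in FPKM, which is scaled by gene length and library. The 6 genes fell into 3 tiers. S100A12 and S100A9 were among the most abundant transcripts of yak blood: within a library, S100A12 ranked between place 1 and place 47 of all genes by FPKM, and was the highest gene of all in Y-E replicates 1, 3 and 5. S100A9 ranked between place 3 and place 70, and S100A8 between place 52 and place 838. LCN2 ranked between place 2100 and place 7459, LTF between place 6963 and place 14309, and PGLYRP1 between place 8182 and place 12826. The 3 calgranulins together took 0.0819% to 0.617% of all counts in a library.

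The lowest, the median and the highest FPKM of S100A12 were 1291, 2716 and 6262 at anestrus, 1351, 5415 and 5899 at estrus, and 876, 1378 and 4262 in pregnancy. The same 3 values for S100A9 were 942, 1822 and 3114 FPKM at anestrus, 1088, 3606 and 4985 at estrus, and 653, 1198 and 2420 in pregnancy. For S100A8 they were 129, 397 and 817 FPKM at anestrus, 129, 726 and 853 at estrus, and 94.9, 143 and 642 in pregnancy. For all 3 calgranulins the stage medians thus stood in the order Y-E, Y-A, Y-P, and neighbouring stages overlapped in their ranges. The lowest Y-E value of each of the 3 came from replicate 6.

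The lowest, the median and the highest FPKM of LCN2 were 9.80, 16.5 and 36.2 at anestrus, 11.03, 25.8 and 41.0 at estrus, and 8.11, 18.1 and 26.4 in pregnancy. Only for LCN2 did the order of Y-A and Y-P depend on the scale: the Y-P median was the higher in FPKM and the lower in CPM, at 14.8 CPM in Y-P and 15.8 CPM in Y-A. For LTF these values were 0.469, 2.24 and 5.18 FPKM at anestrus, 0.220, 2.55 and 7.55 at estrus, and 0.203, 0.297 and 1.25 in pregnancy. For PGLYRP1 they were 0.472, 1.55 and 3.20 FPKM at anestrus, 0.694, 2.18 and 5.04 at estrus, and 0.557, 0.681 and 0.877 in pregnancy. LTF and PGLYRP1 thus had their lowest medians in pregnancy, with every Y-P library of LTF at or under 1.25 FPKM. The Y-P libraries of PGLYRP1 lay close together, with a coefficient of variation of 18.9% in CPM against 54.6% in Y-A and 71.0% in Y-E. These were low counts, 22 to 241 per library for PGLYRP1 and 27 to 1103 for LTF, against 18182 to 147456 for S100A12.

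**Figure D1:**
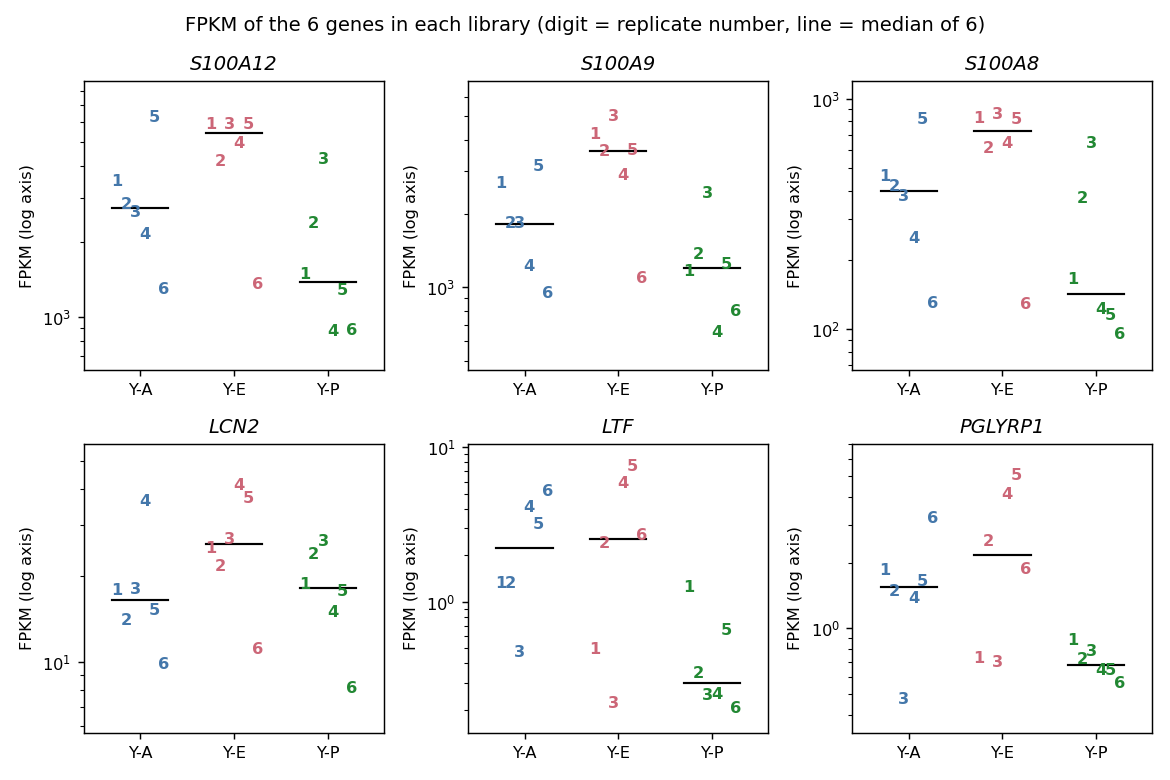
FPKM (log axis) of the 6 genes in each of the 18 libraries, by stage; each digit is 1 library and gives its replicate number, and the line is the median of the 6 libraries of a stage. In Y-E the calgranulins of replicate 6 stand below the other 5 libraries, while the LTF and PGLYRP1 values of Y-E replicates 1 and 3 are the lowest of that stage.

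The calgranulins varied less in proportion to each other than in level. The FPKM ratio of S100A12 to S100A9 was 1.03 to 2.01 over the 18 libraries, whereas S100A12 FPKM itself ran from 876 to 6262. The ratio of S100A8 to S100A9 was 0.0927 to 0.273, beside 94.9 to 853 FPKM for S100A8 itself. The ratio of LTF to PGLYRP1 ran wider, from 0.317 to 2.98, with a median of 1.31 at anestrus, 1.19 at estrus and 0.435 in pregnancy.

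Stages were then compared on the counts, as CPM after TMM scaling and as log2 fold changes with the standard error (SE) of a fit over all genes. Over the whole table, a gene was called where its adjusted p was under 0.05 and its log2 fold change at least 1 in size.

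For Y-E vs. Y-A, the levels of all 6 genes were on average higher at estrus. The log2 fold change was 0.80 ± 0.38 (SE, n = 6 per stage) for S100A9, 0.58 ± 0.45 for S100A12 and 0.65 ± 0.53 for S100A8. It was 0.54 ± 0.34 for LCN2, 0.53 ± 0.45 for PGLYRP1 and 0.26 ± 0.67 for LTF. Without Y-E replicate 6 the values were 0.99 ± 0.35, 0.78 ± 0.43 and 0.86 ± 0.50 for the 3 calgranulins. With 1 library left out in turn S100A8 ran from 0.46, without Y-A replicate 6, to 0.99, without Y-A replicate 5. The thresholds were passed by 0 of the 6 genes with and without that library. Over all genes tested, 0.0138% were called in this comparison by edgeR (2 genes; 900 had an unadjusted p under 0.05, and DESeq2 called 14), and 0.123% without Y-E replicate 6. Blocking by replicate number gave 0.0758%. The log2 fold changes were then 0.76 ± 0.24 for S100A9, 0.56 ± 0.32 for S100A12 and 0.60 ± 0.37 for S100A8. They were 0.52 ± 0.24 for LCN2, 0.45 ± 0.48 for PGLYRP1 and 0.10 ± 0.59 for LTF, and 0 of the 6 genes passed the thresholds. The sign for LTF was not stable, since it ran from −0.23 to 0.57 when libraries were left out in turn.

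For Y-P vs. Y-A, all 6 log2 fold changes were negative. The thresholds were passed by 1 of the 6 genes, with and without Y-E replicate 6, a count from which nothing is read. Over all genes, 1.43% were called in either direction and 1.09% as lower (1.56% in either direction without Y-E replicate 6). Of these calls 24.0% were higher in pregnancy, a share that was 55.6% with library size in place of TMM scaling. LTF was 10.1 CPM at the median in Y-A (range 1.95 to 22.6) and 1.24 CPM in Y-P (range 0.742 to 4.37), a log2 fold change of −2.61 ± 0.72. The ranges overlapped, through Y-A replicate 3 at 1.95 CPM and Y-P replicates 1 and 5 at 4.37 and 2.46 CPM. With 1 library left out in turn it ran from −3.07 to −2.32. PGLYRP1 stood at −1.44 ± 0.47, and at −1.64 to −1.18 with 1 library left out. S100A12 was at −0.90 ± 0.45, S100A8 at −0.84 ± 0.53, S100A9 at −0.78 ± 0.38 and LCN2 at −0.19 ± 0.34.

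The Y-P vs. Y-E comparison held the widest differences. All 6 genes were on average lower in pregnancy. The thresholds were passed by 4 of the 6, and by 5 of the 6 without Y-E replicate 6. Over all genes, 2.67% were called in either direction and 2.22% as lower (2.58% in either direction without Y-E replicate 6). The share of these calls that were higher in pregnancy was 16.8%, and 41.1% with library size only, under which the 6 genes kept their direction. Since measured values had part in the choice of the 6 genes, nothing is read from their counts against these shares. The median log2 fold change of the 6 was −1.54, a description for the same reason.

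S100A9 was 417 to 2131 CPM in Y-E (median 1469) and 212 to 935 CPM in Y-P (median 404), a log2 fold change of −1.59 ± 0.39, or 3.00-fold lower. Every Y-P library lay below every Y-E library except replicate 6, the next lowest Y-E value being 1059 CPM. Over all genes, 5.1% lay lower in this way in every Y-P library than in the 5 other Y-E libraries, and 3.85% did so against all 6. With 1 library left out in turn the log2 fold change of S100A9 ran from −1.93 to −1.42.

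S100A12 was 881 to 4276 CPM in Y-E (median 3528) and 485 to 2801 CPM in Y-P (median 788), a log2 fold change of −1.48 ± 0.46, or 2.79-fold lower. Y-P replicate 3, at 2801 CPM, came within reach of the Y-E libraries, of which replicate 2 held 2913 CPM. In FPKM it stood above that library, at 4262 against 4196. With 1 library left out in turn the log2 fold change of S100A12 ran from −1.97, without Y-P replicate 3, to −1.32.

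S100A8 was 40.8 to 301 CPM in Y-E (median 238) and 26.2 to 205 CPM in Y-P (median 38.6), a log2 fold change of −1.49 ± 0.54. Its size was that of its neighbours on the chromosome, with a wider SE. It was −1.71 ± 0.50 without Y-E replicate 6, −2.09 without Y-P replicate 3, and −1.57 ± 0.38 when blocked by replicate number. In Y-P, replicates 3 and 2 were high at 205 and 116 CPM, and the other 4 libraries lay between 26.2 and 44.1 CPM.

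LTF was 1.07 to 32.6 CPM in Y-E (median 10.7) and 0.742 to 4.37 CPM in Y-P, a log2 fold change of −2.88 ± 0.73, or 7.34-fold lower. PGLYRP1 was 1.03 to 7.12 CPM in Y-E (median 3.01) and 0.660 to 1.06 CPM in Y-P (median 0.876), a log2 fold change of −1.97 ± 0.47, or 3.93-fold lower. Both genes had Y-E libraries at the level of pregnancy: replicates 1 and 3 held 2.12 and 1.07 CPM of LTF and 1.04 and 1.03 CPM of PGLYRP1. With 1 library left out in turn LTF ran from −3.33 to −2.39 and PGLYRP1 from −2.17 to −1.62. LCN2 was 10.3 to 36.7 CPM in Y-E (median 25.9) and 6.60 to 24.7 CPM in Y-P (median 14.8), a log2 fold change of −0.73 ± 0.34.

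Without Y-E replicate 6, the log2 fold changes for Y-P vs. Y-E were −1.77 ± 0.36 for S100A9, −1.67 ± 0.43 for S100A12, −2.93 ± 0.76 for LTF, −2.05 ± 0.49 for PGLYRP1 and −0.89 ± 0.31 for LCN2. The 3 comparisons share their libraries, so they are not independent of each other.

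**Figure D2:**
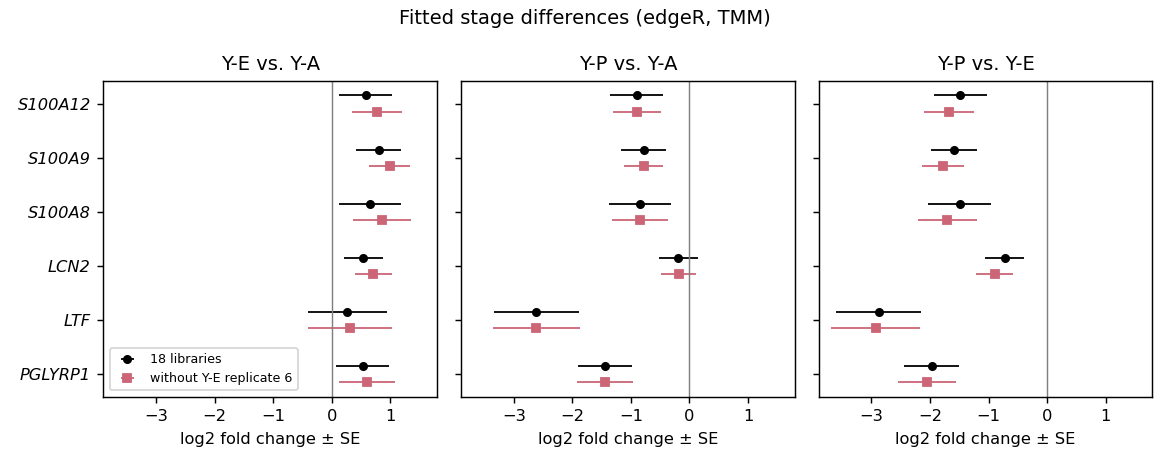
Fitted log2 fold change (points) with its SE (bars) for the 6 genes in the 3 comparisons, with all 18 libraries (circles) and without Y-E replicate 6 (squares). For Y-P vs. Y-E LTF is at −2.88 and LCN2 at −0.73, with the 3 calgranulins between −1.59 and −1.48.

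Within a stage, the 6 genes split into groups that moved separately. For this, the stage mean was taken from the log2 CPM of each gene, so that stage differences did not enter, and the deviations were correlated over the 18 libraries. These libraries come from few cows and share their depth between genes, so the correlations are a description. Pearson's r was 0.984 for S100A8 with S100A12, 0.956 for S100A9 with S100A12 and 0.932 for S100A8 with S100A9. LTF and PGLYRP1 formed a second pair with r of 0.862. Between these groups there was little relation: r was −0.264 to −0.141 for LTF with the calgranulins and −0.0742 to 0.0298 for PGLYRP1 with them. LCN2 went partly with the calgranulins, at 0.568 to 0.673, falling to 0.380 to 0.541 without Y-E replicate 6, and stood at 0.140 with LTF and 0.136 with PGLYRP1. LCN2, a product of the same granule class as lactoferrin, thus followed LTF less closely than it followed the calgranulins by this measure, which was not tested.

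**Figure D3:**
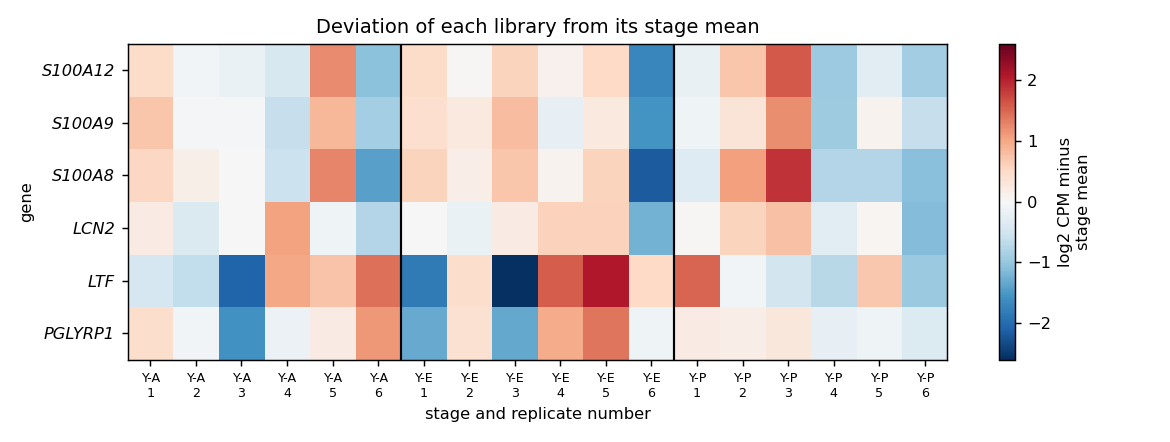
Deviation of each library from the mean log2 CPM of its stage, for the 6 genes (rows) and 18 libraries (columns, by stage and replicate number); red is above and blue below the stage mean. The 3 calgranulin rows share their colours, with r of 0.932 to 0.984, as do LTF and PGLYRP1 with r of 0.862.

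The replicate numbers showed the same libraries high or low at more than 1 stage. Number 6 held the lowest S100A8 of every stage, with 43.7, 40.8 and 26.2 CPM from anestrus to pregnancy. It also held the lowest LCN2 of every stage, with 9.77, 10.3 and 6.60 CPM. For S100A9 and S100A12, number 6 was the lowest in Y-A and Y-E and the next to lowest in Y-P. Number 3 was the highest calgranulin library in Y-E and Y-P, with S100A12 at 4276 and 2801 CPM. LTF went otherwise: number 6 was the highest of Y-A at 22.6 CPM, number 3 was the lowest of Y-A and Y-E at 1.95 and 1.07 CPM, and numbers 4 and 5 were high in both, at 16.9 and 13.99 CPM in Y-A and 23.0 and 32.6 CPM in Y-E. The sources do not state that a number marks the same cow at each stage.

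By the rule set for likeness, the genes that followed the mean deviation of the 6 most closely over the 18 libraries were ENSBGRG00000001072 (r of 0.844), EIF4E3 (0.817), ENSBGRG00000009527 (0.815), CRYBB1 (0.810), DYNLL2 (0.788) and ENSBGRG00000016515 (0.788). EIF4E3 encodes a cap-binding protein of the translation initiation factor 4E family, DYNLL2 a dynein light chain and CRYBB1 a crystallin. The table gives no name for the other 3. Since the 6 split into groups, their mean stands for neither group. Nearest to the 3 calgranulins were ENSBGRG00000002990 (0.916), BIN3 (0.913), NDUFA6 (0.910), ENSBGRG00000024526 (0.909), RNF5 (0.908) and ENSBGRG00000026681 (0.904). The calgranulins themselves correlated at 0.932 to 0.984 in pairs. The values of the other genes are correlations with the mean of the calgranulins, so these measures are not directly comparable. Nearest to LTF and PGLYRP1 were TLCD3A (0.817) and NUDT9 (0.778).

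The summed level of neutrophil markers had its stage medians in the same order as the calgranulins. Of 15 neutrophil marker genes listed, 10 were in the table and none of those was at 0 throughout. Their summed level was 4454 to 5863 CPM at anestrus (median 5492), 5104 to 8606 CPM at estrus (median 7386) and 3788 to 5574 CPM in pregnancy (median 4325). CSF3R weighed most in this sum, with medians of 2711, 4118 and 1957 CPM from anestrus to pregnancy. VNN2 went otherwise, with medians of 435, 412 and 769 CPM. For Y-P vs. Y-E 8 of the 10 log2 fold changes were negative. Of the 10, 3 were called lower, MXD1, CSF3R and PROK2, beside 2.22% of all genes. None was called in the other comparisons. CSF3R, the receptor of the growth factor G-CSF, fell by 1.09 ± 0.16 on the log2 scale (edgeR, adjusted p = 0.000426; under the fold threshold without Y-E replicate 3).

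Set against that marker sum, the calgranulins still differed between libraries. The summed CPM of the 3 calgranulins per CPM of neutrophil markers was 0.229 to 1.04 at anestrus (median 0.551), 0.183 to 0.853 at estrus (median 0.785) and 0.150 to 0.994 in pregnancy (median 0.242). Y-E replicate 6 held 7318 CPM of neutrophil markers, within the range of its stage, and 1339 CPM of calgranulins, where the other 5 Y-E libraries held 4352 to 6708 CPM. Its marker sum was raised by VNN2, at 1744 CPM the highest of Y-E, where the stage median was 412 CPM. CSF3R was 3298 CPM in it, where the stage median was 4118 CPM. Y-P replicate 3 held 3966 CPM of the markers and 3941 CPM of calgranulins. LTF CPM per 1000 CPM of neutrophil markers was 0.403 to 3.88 at anestrus (median 1.81), 0.124 to 4.67 at estrus (median 1.403) and 0.140 to 0.934 in pregnancy (median 0.322). The part of neutrophil number in the stage differences was not tested.

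**Figure D4:**
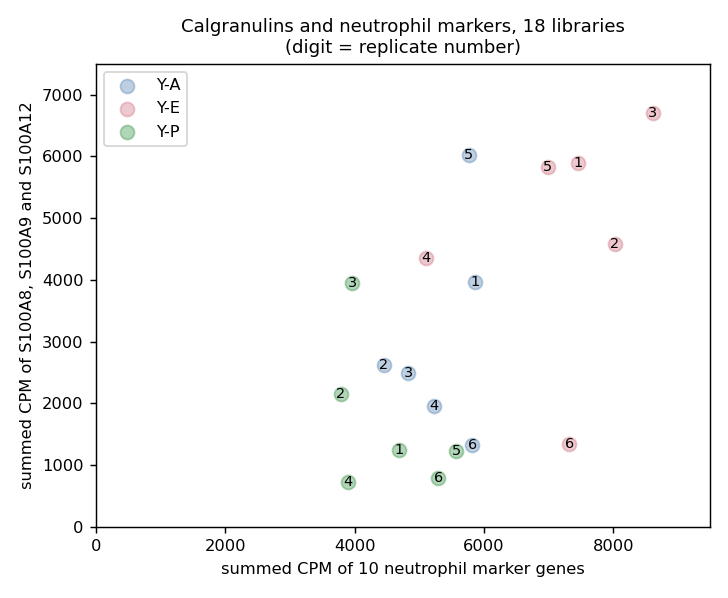
Summed CPM of S100A8, S100A9 and S100A12 (vertical axis) against the summed CPM of 10 neutrophil marker genes (horizontal axis) in 18 libraries, coloured by stage, with the replicate number in each point. Y-E replicate 6 stands at 1339 CPM of calgranulins, with a marker sum of 7318 CPM, within the range of its stage and raised by VNN2.

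Markers of other blood cells were present too. Reticulocyte markers were called lower for 6 of 7 genes for Y-P vs. Y-A, beside 1.09% of all genes, and for 5 of 7 for Y-P vs. Y-E, beside 2.22%, the latter 1 of 7 without Y-E replicate 6. For Y-E vs. Y-A, 0 of 7 were called with all 18 libraries, with a median log2 fold change of −1.68, and 3 of 7 were called lower without Y-E replicate 6 (KLF1, ALAS2 and HBM), with a median of −4.34, where 0.123% of all genes were called in either direction. Platelet markers were called lower for 3 of 4 genes for Y-P vs. Y-A, beside 1.09% of all genes, and for Y-P vs. Y-E, beside 2.22%. None was called for Y-E vs. Y-A. The summed level of platelet markers was 142 to 198 CPM in Y-P against 266 to 356 in Y-A and 230 to 376 in Y-E. No T cell, B cell, monocyte or eosinophil marker was called in any comparison. By adjusted p under 0.05 alone, without the fold threshold, 3 of 6 T cell markers were higher for Y-P vs. Y-E. For Y-P vs. Y-A 2 of 6 were. Over all genes these shares were 14.4% and 5.83% in either direction. The median summed level of monocyte markers, cells that also carry calgranulins, was 973 CPM at anestrus, 1086 CPM at estrus and 665 CPM in pregnancy, and that of T cell markers 826, 859 and 1129 CPM. Their part in the results was not tested.

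Related genes were read from 5 lists of neutrophil biology, drawn up with earlier results of these data known though not picked for how the genes moved, with 84 symbols, of which 53 were in the table and 45 passed the low-count filter. For Y-P vs. Y-E 11 of the 45 were called, 10 of them lower, beside 2.67% of all genes. For Y-P vs. Y-A 3 were called, 2 of them lower, beside 1.43%, and for Y-E vs. Y-A none was called, beside 0.0138%. Unlike the 6 genes above, single genes of these lists were tested (edgeR's quasi-likelihood method, two-sided) with Benjamini-Hochberg adjustment over all genes tested.

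Other granule and antimicrobial genes made up most of the calls. Of 13 tested, 6 fell for Y-P vs. Y-E, with a median log2 fold change of −0.90 over the 13, and 5 of 14 fell without Y-E replicate 6. TCN1, a cobalamin-binding protein of secondary granules, was 742 to 1807 CPM in Y-E (median 893) and 166 to 622 CPM in Y-P (median 403), with no overlap, and fell by 1.405 ± 0.32 on the log2 scale (adjusted p = 0.00734). Over all genes, 3.85% were lower without overlap. MMP9, the gelatinase of tertiary granules, was 51.3 to 305 CPM in Y-E (median 163) and 36.2 to 130 CPM in Y-P (median 57.5), and fell by 1.29 ± 0.36 (adjusted p = 0.021), a call lost without Y-E replicate 3 (−1.03, adjusted p = 0.0637). Against anestrus, MMP9 stood at 1.46 ± 0.36 in estrus (adjusted p = 0.28), and without Y-E replicate 6 it rose by 1.64 ± 0.31 (adjusted p = 0.0444). MMP25, a membrane-bound metalloproteinase of neutrophils, was at −0.90 ± 0.22 for Y-P vs. Y-E (adjusted p = 0.0115), under the fold threshold.

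OLFM4, a glycoprotein found in the secondary granules of part of the neutrophils, was 5.09 to 23.5 CPM in Y-E and 1.31 to 6.26 CPM in Y-P and fell by 1.49 ± 0.48 (adjusted p = 0.0424). This call was lost without any of Y-E replicates 1, 2 and 5 or Y-P replicates 2, 3, 4 and 6, the value moving most without Y-E replicate 5, at −0.998 (adjusted p = 0.154). CRISP3, another granule protein, fell by 1.51 ± 0.49 (adjusted p = 0.0454), a call that held in 12 of 27 settings and was −1.26 without Y-E replicate 5 (adjusted p = 0.116). CATHL6, a cathelicidin, the family of granule peptides that puncture bacterial membranes, had 4 to 143 counts per library at estrus, 28 to 216 at anestrus and 0 to 13 in pregnancy. It fell by 3.47 ± 0.89 for Y-P vs. Y-E (adjusted p = 0.0141) while it fell by 3.99 ± 0.90 for Y-P vs. Y-A (adjusted p = 0.0173). Its highest libraries were Y-A replicate 6 and Y-E replicate 4, at 7.68 and 3.96 CPM, where LTF was also high, at 22.6 and 23.0 CPM.

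ARG1, the arginase that some neutrophils store in granules, was highest where reticulocyte RNA was. It was 485 CPM in Y-A replicate 6 and 208 CPM in Y-E replicate 6, the libraries with the highest reticulocyte sums of their stages, and at most 23.3 CPM in the other Y-E libraries. The part of reticulocytes in its differences was not tested. For Y-P vs. Y-A ARG1 fell by 5.56 ± 1.13 on the log2 scale (adjusted p = 0.00928). For Y-P vs. Y-E it fell by 3.81 ± 1.04 (adjusted p = 0.02), but it was −1.82 ± 0.76 without Y-E replicate 6 (adjusted p = 0.122). For Y-E vs. Y-A it was −1.75 ± 0.94 (adjusted p = 0.87), and blocked by replicate number it fell by 2.67 ± 0.37 (adjusted p = 0.00919).

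Primary granule genes, transcribed at the earliest steps of neutrophil maturation, gave no call in 3 genes tested. MPO, the myeloperoxidase of these granules, was 6.71 to 22.6 CPM in Y-E and 9.08 to 19.1 CPM in Y-P, with a log2 fold change of 0.11 ± 0.31 (adjusted p = 0.856). CTSC, the protease that activates granule serine proteases, was at −0.13 ± 0.13 (adjusted p = 0.528).

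Other S100 family genes gave no call either, in 7 tested, with a median log2 fold change of −0.28 for Y-P vs. Y-E. S100A10, the partner of annexin A2, had a mean of 682 FPKM over all libraries and stood at −0.28 ± 0.23 (adjusted p = 0.468). S100A4, at a mean of 289 FPKM, stood at −0.45 ± 0.45 (adjusted p = 0.55). Both genes shared part of their library pattern with the calgranulins, which was not tested. In Y-P, replicates 3 and 2 were the highest, at 399 and 331 CPM of S100A4 against 58.8 to 85.6 CPM in the rest. For S100A10 they held 353 and 302 CPM against 109 to 168 CPM. Replicate 6 was the lowest for S100A4 and S100A10 in Y-A, at 83.0 and 161 CPM, and in Y-E, at 116 and 206 CPM. Other libraries went otherwise. In Y-E, replicate 2 was the highest for both, at 312 and 283 CPM, but next to lowest for S100A12. In Y-P, replicate 1 was the lowest for both, at 58.8 and 109 CPM.

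Among receptors and partners, 3 of 12 were called for Y-P vs. Y-E. MYD88, the adaptor that passes on signals of Toll-like receptors, fell by 1.06 ± 0.18 on the log2 scale (adjusted p = 0.00117). It was 180 to 418 CPM in Y-E and 108 to 165 CPM in Y-P, lower with no overlap, as were 3.85% of all genes. It came under the fold threshold without Y-E replicate 2 (−0.97) or 3 (−0.91). LRP1, an endocytic receptor that takes up lactoferrin, fell by 1.09 ± 0.29 (adjusted p = 0.0167), and stood at −0.96 ± 0.29 without Y-E replicate 6, under the fold threshold (adjusted p = 0.0363), as it did without Y-E replicate 3 (−0.92) or Y-P replicate 5 (−0.95). TLR4, a receptor of S100A8 and S100A9, was at −0.38 ± 0.19 (adjusted p = 0.191). SLC22A17, described as a receptor of lipocalin 2, went the other way. It was 0.475 to 1.18 CPM at anestrus, 0.229 to 1.495 CPM at estrus and 1.29 to 5.29 CPM in pregnancy. It rose in pregnancy by 1.905 ± 0.46 on the log2 scale against Y-A (adjusted p = 0.0246) and by 1.66 ± 0.46 against Y-E (adjusted p = 0.0213), on counts of 7 to 208 per library. Without Y-P replicate 4 these were 1.67 (adjusted p = 0.0586) and 1.42 (adjusted p = 0.0577), and the call against Y-A was also lost without Y-A replicate 5 or Y-P replicates 2 or 5.

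Among granulocyte transcription factors, 2 of 10 fell for Y-P vs. Y-E. SPI1, the factor PU.1 of myeloid cells, was 485 to 1108 CPM in Y-E and 287 to 355 CPM in Y-P and fell by 1.16 ± 0.19 (adjusted p = 0.0008). RARA, a retinoic acid receptor with a role in granulocyte maturation, was 809 to 1508 CPM in Y-E and 454 to 647 CPM in Y-P and fell by 1.18 ± 0.14 (adjusted p = 0.000206). In both genes every Y-P library lay below every Y-E library, as in 3.85% of all genes. CEBPE, the factor that drives secondary granule genes, was tested and not called. It stood at −0.44 ± 0.25 for Y-P vs. Y-E (adjusted p = 0.272) and 0.71 ± 0.25 for Y-E vs. Y-A (adjusted p = 0.569).

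**Figure D5:**
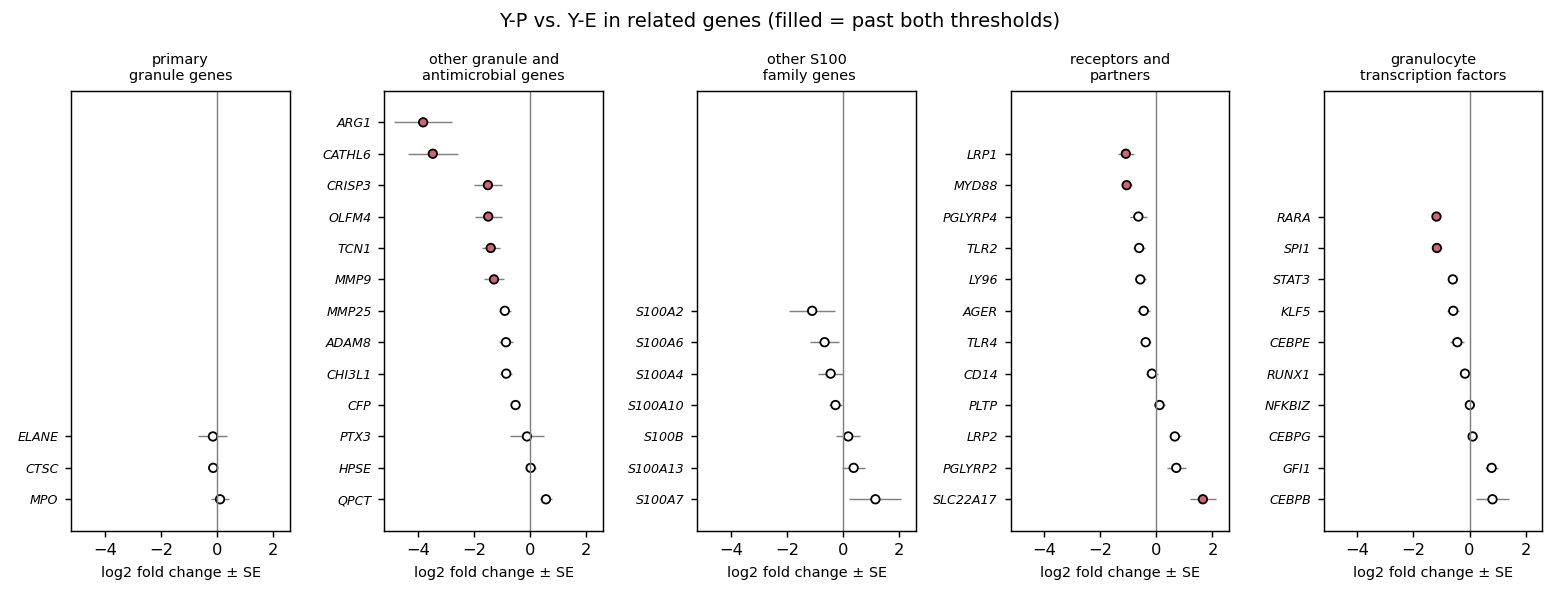
Log2 fold change (points) with SE (bars) for Y-P vs. Y-E for the 45 tested genes of the 5 lists, 1 panel per list; filled points passed both thresholds. Of the 11 filled points, 10 lie to the left of 0 and 6 belong to the list of other granule and antimicrobial genes.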

How the data were processed

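Poly(A) RNA of whole blood, drawn into EDTA tubes with TRIzol LS, was made into strand-marked libraries and sequenced in paired reads on an Illumina NovaSeq. Per the submitters' processing notes, the authors used cutadapt 1.9, HISAT2 2.2.1 and StringTie 2.1.6, together with DESeq2 and edgeR. The authors deposited FPKM values, scaled by exon length and mapped reads, and whole-number counts per gene and library. The program that made the counts, and whether it used the strand, are not given in the sources used here. Positions are those of the deposited table.

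The 18 libraries were grouped by their titles and stage labels. Counts were tested as deposited with edgeR 4.0.16 in R 4.3.3: TMM scaling, filterByExpr, a quasi-likelihood fit on stage over all 18 libraries, two-sided, with Benjamini-Hochberg adjustment per comparison. Calls needed an adjusted p under 0.05 and a log2 fold change of 1 or more in size. The SE is the size of the log2 fold change divided by the square root of F. Levels are TMM-scaled CPM, or deposited FPKM where genes are compared with each other. Scripts were tested on simulated data. Alternatives used other scalings, no filter, DESeq2 1.42.0, limma 3.58.1 on log2(FPKM + 1) and log2(FPKM + 0.1), the replicate number as a block, and each library left out. No column without a sample was found.

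The members, the lists and the choice of Y-E replicate 6 as a library to leave out were set with earlier results of these data known. Y-E replicate 6 has no entry in the study's supplementary sequencing tables. From each list, every called gene and the pair with the highest mean FPKM were named. A result that this rule would name is not reported here. CEBPE was named after its values were seen, as were MXD1, PROK2, KLF1, ALAS2 and HBM, and the highest libraries of CATHL6. Same-numbered Y-A and Y-E libraries deviated together (correlation over genes 0.110 to 0.515 in the 6 pairs), and the number was taken to pair them. The other stages did not meet this rule. The number entered only the fits with a block, and the main fit was on stage alone. Whether replicates are separate animals within a stage is taken from the study's description. Depth of at least 30247267 counts per library leaves counting error largest for PGLYRP1, with 22 to 241 counts.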

Additional observations from a re-analysis of the deposited data

How the results depend on the processing

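All 6 genes kept their direction for Y-P vs. Y-E under each of 27 settings. Counts of these 6 past the thresholds are not evidence, since measured values had part in their choice. For Y-E vs. Y-A, the whole table gave 2 calls, 14 with DESeq2, 11 with a block on the replicate number, 34 with the block and Y-E replicate 6 left out, and 2 to 18 with 1 library left out (4 without Y-A replicate 1, 18 without Y-E replicate 6). The listed related genes gave 0, 2, 1, 2 and 0 to 2, and the 6 genes 0 throughout. For Y-P vs. Y-A, the whole table gave 208, 128 with limma on log2(FPKM + 1), 343 on log2(FPKM + 0.1), and 110 to 229 with 1 library left out (110, 134 and 136 without Y-P replicates 2, 4 and 5). The related genes gave 3, 1 with limma on log2(FPKM + 1), and 2 to 5 with 1 left out (5 without Y-A replicate 1). The 6 genes gave 1, but 0 without the filter, 2 with DESeq2, 0 with limma at either pseudocount, 0 with the block and Y-E replicate 6 left out, and 0 to 2 with 1 left out (2 without Y-A replicate 3). For Y-P vs. Y-E, the whole table gave 387, 143 with limma on log2(FPKM + 1), and 289 to 476. The related genes gave 11, 7 with library size only, 2 and 5 with limma at pseudocounts of 1 and 0.1, and 7 to 11 (7 without Y-E replicate 3). The 6 genes gave 4, and 3 to 5. MYD88, LRP1 and CSF3R came under the fold threshold with library size only, at −0.91, −0.91 and −0.93. The pseudocount shrinks the differences of LTF and PGLYRP1 by construction. Other causes were not tested.

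With this block, 421 genes were called for Y-P vs. Y-E and 256 for Y-P vs. Y-A. The SE of S100A9 there was 0.25, against 0.39 without the block. OLFM4 was then also called for Y-P vs. Y-A at −1.10 (edgeR, adjusted p = 0.0102). Same-numbered libraries correlated at −0.0492 to 0.369 between anestrus and pregnancy and −0.0545 to 0.400 between estrus and pregnancy. Of 6 libraries, 4 of Y-P were best matched by their own number in Y-A and 4 in Y-E, against 6 of 6 of Y-E in Y-A, a hint from the data and not the design.

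With library size only, the median log2 fold change of all genes was 0.19 for Y-P vs. Y-A and 0.18 for Y-P vs. Y-E, against 0.03 and 0.04 with TMM. The 6 genes kept their direction under it. The median within-stage correlation of the 6 genes was 0.140, 0.267 by Spearman and 0.228 without Y-E replicate 6. By Dixon's test on CPM, no value of the 6 genes stood apart in its stage. The test was not run on log2 CPM, the scale of the correlations. On that scale S100A8 of Y-E replicate 6 deviated by −2.16 from its stage mean, and the other Y-E libraries by 0.0979 to 0.728. For S100A12 these values were −1.70 and 0.0258 to 0.580. The result on CPM therefore does not show that this library was like the others.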
